A study of Homo sapiens with 12 samples.

Results

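The genes described here are 40 that act in DNA replication and in the passage from G1 to S phase, chosen by name from the known replication machinery and its cell cycle regulators. A gene is represented by the probe set whose annotation carries its symbol alone, and all 40 were found, each with 1 such probe set, among 18404 genes and 32321 probe sets. They were read on 12 one-colour whole-transcript arrays of L-1236 and U-HO1, established lines of Hodgkin lymphoma, a tumour of B-cell origin whose cells have lost most of the B-cell programme. In each line, 3 arrays carry the label of a non-functional control shRNA and 3 that of an shRNA against GATA-3, a transcription factor of T-helper cells. All cells, controls included, carried a GFP-marked shRNA: 25000 GFP-positive cells were collected per sample after 3 days of culture, and their RNA was amplified. Each line is a single established culture grown in a medium of its own, L-1236 in RPMI 1640 and U-HO1 in IMDM, so line and medium cannot be told apart. Arrays of a group are called independent in the design text without further detail, so the p-values reflect only how these arrays vary. All levels below are the deposited log values, taken as log2, and values of a group are given in the order of replicates 1, 2 and 3.

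Replication origins are licensed in G1, when the origin recognition complex, CDC6 and CDT1 load the MCM2 to MCM7 helicase onto DNA. At the start of S phase CDC45, the GINS complex and MCM10 turn the loaded helicase on, and primase, the replicative polymerases, the PCNA clamp and its RFC loader copy the strands. Entry into S phase is driven by cyclin D and cyclin E kinases, which free E2F factors to transcribe many of these same genes, and the transcripts are therefore abundant in dividing cells. Bulk RNA cannot separate fewer cells in S phase from less RNA per cell.

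Promoter sequence was read for these genes because E2F sites are the shared regulatory feature for which they are known. RefSeq windows on GRCh38.p14 were at hand for 35 of the 40 genes, 44 windows in all, and the 250 bases before each start were searched on both strands. MCM4, MCM5, CCND2, CCNE2 and CDK2 had no entry. An E2F-type motif in any of the 4 spellings TTTCCCGC, TTTGGCGC, TTTCGCGC and TTTGCCGC was present in 31.8% of the 44 windows, against 2.79% of all 35116 promoter windows. The motif CCAAT was present in 56.8% against 32%, and TTTGAA, the core of the element of late cell cycle genes, in 2.27% against 13.3%. Windows were not matched for base composition, and the E2F spellings are richer in G and C than TTTGAA. These shares are therefore a description of the windows. Shown are the last 160 bases before the start, 5′ to 3′ on the gene's strand, for 3 genes higher in U-HO1 with an E2F match, for MCM6, which was lower, for MCM10, which was higher without a match, and for E2F1, which was not called. Capitals mark matches to the E2F spellings and to CCAAT on either strand, and adjoining matches form 1 run of capitals. MCM6 lies at chr2:135876444-135876603 on the minus strand, CDT1 at chr16:88803629-88803788 on the plus strand and POLE at chr12:132687343-132687502 on the minus strand. TYMS lies at chr18:657493-657652 and MCM10 at chr10:13161398-13161557, both on the plus strand, and E2F1 at chr20:33686386-33686545 on the minus strand.
MCM6: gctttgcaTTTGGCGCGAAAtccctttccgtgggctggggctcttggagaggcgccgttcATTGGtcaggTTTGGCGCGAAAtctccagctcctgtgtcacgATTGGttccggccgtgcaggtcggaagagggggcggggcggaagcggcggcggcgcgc
CDT1: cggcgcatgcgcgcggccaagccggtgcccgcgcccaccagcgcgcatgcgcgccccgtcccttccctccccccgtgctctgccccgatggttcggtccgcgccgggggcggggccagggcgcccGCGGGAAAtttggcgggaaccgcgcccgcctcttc
POLE: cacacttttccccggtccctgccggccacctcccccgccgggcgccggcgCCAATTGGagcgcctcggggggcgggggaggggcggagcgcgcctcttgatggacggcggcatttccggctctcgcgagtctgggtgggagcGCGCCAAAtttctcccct
TYMS: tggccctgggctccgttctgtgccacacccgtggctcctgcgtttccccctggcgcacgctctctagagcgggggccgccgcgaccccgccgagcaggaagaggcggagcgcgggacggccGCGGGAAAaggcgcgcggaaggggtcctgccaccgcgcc
MCM10: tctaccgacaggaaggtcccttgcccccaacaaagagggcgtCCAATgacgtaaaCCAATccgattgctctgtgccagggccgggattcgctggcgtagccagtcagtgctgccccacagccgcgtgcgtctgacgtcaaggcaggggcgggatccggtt
E2F1: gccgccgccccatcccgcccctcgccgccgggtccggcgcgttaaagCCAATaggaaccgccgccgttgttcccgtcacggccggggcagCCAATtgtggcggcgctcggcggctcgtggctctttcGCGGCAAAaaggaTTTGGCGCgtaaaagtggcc

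The MCM6 stretch held 4 overlapping E2F-type matches in a pair of places, and the E2F1 stretch held 2. Of the 14 genes with a match, CDT1, E2F2, GINS2, POLE and TYMS were higher in U-HO1, MCM6 was lower, and CDC25A, E2F1, LIG1, MCM3, MCM7, PCNA, POLA2 and RFC3 were not called. That is 5 of the 12 higher genes with a window, 1 of the 2 lower ones and 8 of the 21 not called. A match describes letters in the window and is not a binding site.

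Some facts of the arrays bear on every value. GATA3 did not separate the labels in either line. In L-1236 its 3 values with the control label were 10.29, 10.69 and 9.95, against 10.80, 10.00 and 10.24 with the knockdown label, and in U-HO1 they were 11.24, 10.90 and 10.24 against 11.07, 10.12 and 10.22. The groups overlap in both lines. The mean on arrays labelled knockdown differed from that on arrays labelled control by 0.03 in L-1236 (95% interval from -0.64 to 0.71) and by -0.32 in U-HO1 (-1.003 to 0.36), so "labelled knockdown" is used throughout. TNFRSF8 (CD30), the defining surface marker of Hodgkin cells, read 9.36 to 9.92 in L-1236 and 10.04 to 10.50 in U-HO1. Of 8 Hodgkin cell markers 5 were higher in U-HO1 on the control arrays and 1, CD40, was lower, by a difference of -1.96. Of 6 B-cell markers 2 were lower, CD22 at -2.54 and POU2AF1 at -1.31. The mean of 6 T-cell markers lay between 6.05 and 6.27 on every array, against array medians of 6.96 to 7.09. Array L-1236 control replicate 2 and array L-1236 knockdown replicate 3 stand apart for the replication genes: together they gave the 2 highest of the 6 L-1236 values for 37 of the 40 genes (92.5%). The same held for 13.8% of all probe sets and for 20.6% of those above the median level of the table. The counts between the lines, and each member's value where its call changed, are therefore also given without these 2 arrays. They were picked after the data were seen and for their high values of these genes. Leaving them out therefore raises most U-HO1 minus L-1236 differences and narrows the L-1236 spread by construction. Values without them, calls and adjusted p included, are a description and not a test.

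**Figure D1:**
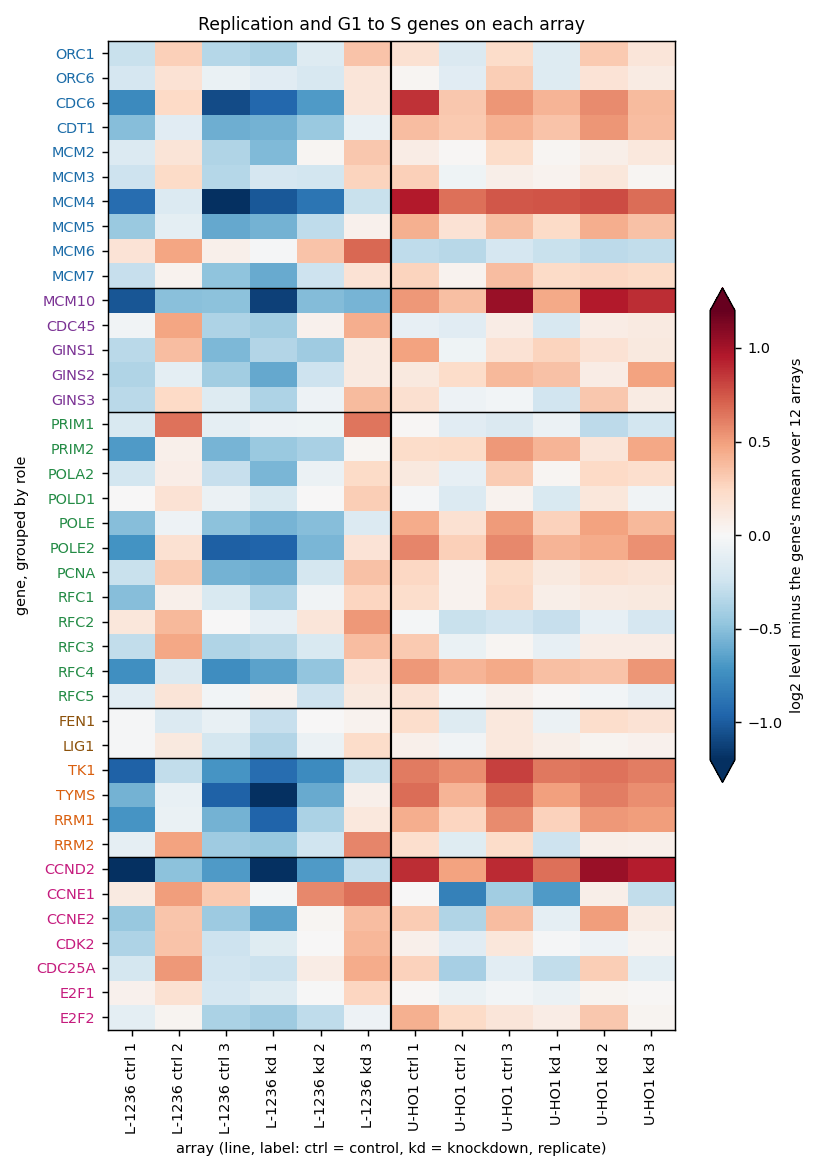
Level of each of the 40 genes (rows, grouped by role) on each of the 12 arrays (columns), as the log2 level minus that gene's mean over the 12 arrays. U-HO1 columns are red for MCM4, MCM10, TK1, TYMS and CCND2 and blue for MCM6, and L-1236 control replicate 2 and knockdown replicate 3 are the 2 highest L-1236 columns for 37 of the 40 genes.

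On the arrays labelled control, 15 of the 40 genes were higher in U-HO1 than in L-1236 at an adjusted p under 0.05, where 13.3% of all probe sets were, and 2 were lower, where 12.5% of all probe sets were. The higher genes were CDC6, CDT1, MCM4, MCM5, MCM10, GINS2, PRIM2, POLE, POLE2, RFC4, TK1, TYMS, RRM1, CCND2 and E2F2, and the lower ones MCM6 and CCNE1. All 40 probe sets lie above the median level of the table, and among the 16160 probe sets above it 21.7% were higher and 18.5% lower. After centring each array on its median the split was 15 higher and 0 lower, with adjusted p = 0.0594 for MCM6 and 0.0792 for CCNE1. Of all 32321 probe sets 8052 were called after centring, 4549 of them higher. The median log2 difference over the 40 genes was 0.27, with 32 positive and 8 negative, against 0.0006 over all probe sets. Leaving out the 2 L-1236 arrays gave 22 higher (13.3% of all probe sets) and 1 lower (11.7%), with a median difference of 0.46, and 16 of these 23 were among the 17 called on all arrays. The 7 genes added were MCM3, MCM7, GINS1, PCNA, RFC1, RFC3 and CDK2, and CCNE1 was the gene lost. Since the 2 arrays were picked for high values of these genes, the added calls are not further detections. Leaving out L-1236 control replicate 1 gave 10 called genes, and leaving out L-1236 control replicate 3 or U-HO1 control replicate 3 gave 11 each.

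**Figure D2:**
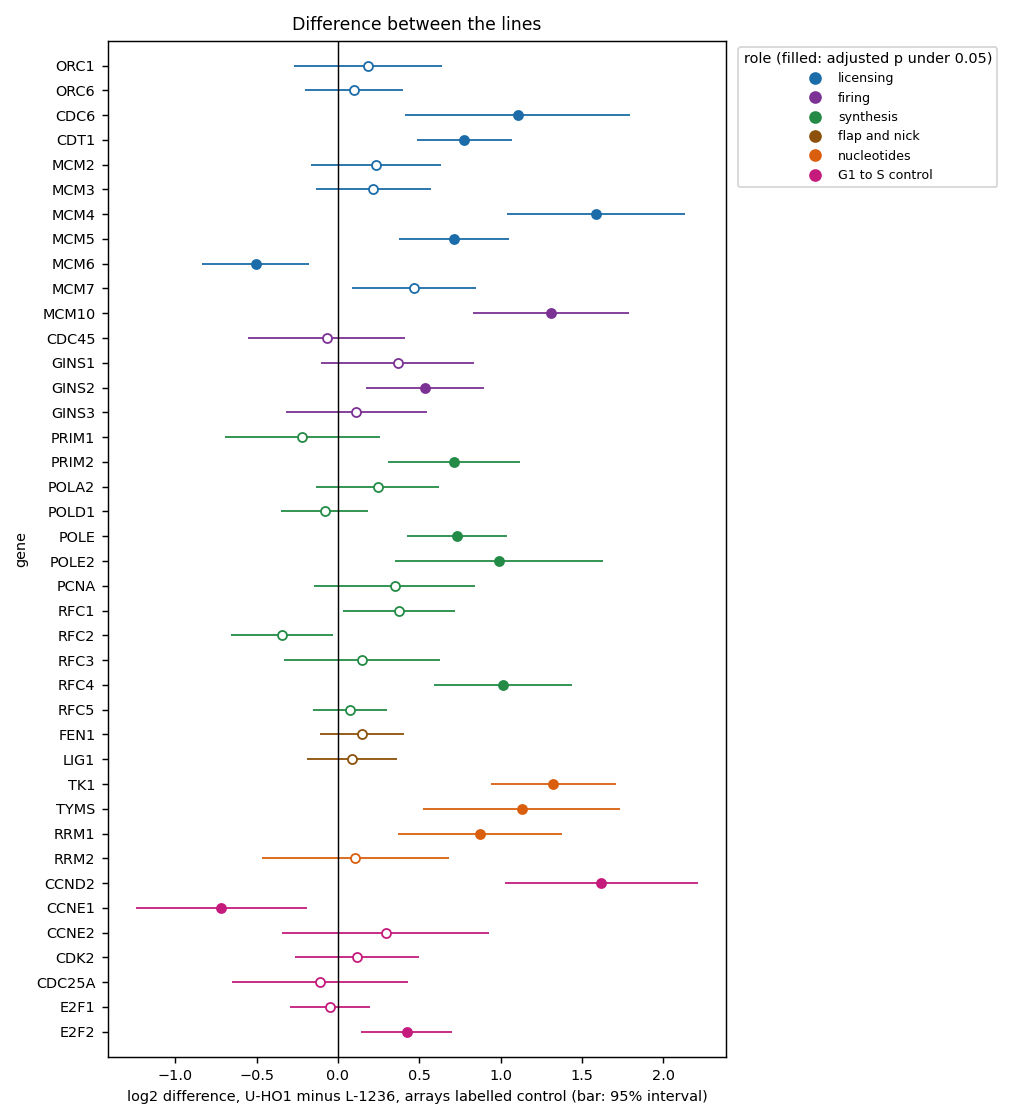
Difference between the lines on the arrays labelled control, U-HO1 minus L-1236 on the log2 scale, for each gene with its 95% interval from the linear model, coloured by role, with filled points at an adjusted p under 0.05. CCND2 lies farthest right at 1.62 and CCNE1 farthest left at -0.72.

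Among the 10 licensing genes 4 were higher (40%) and 1 was lower (10%), against 21.7% and 18.5% of probe sets above the median level. CDC6, the ATPase that helps load the helicase, read 8.13, 9.13 and 7.82 in L-1236 labelled control and 7.96, 8.22 and 9.04 labelled knockdown. CDC6 in U-HO1 read 9.76, 9.22 and 9.42, and 9.30, 9.46 and 9.27. Every U-HO1 array lay above every L-1236 array, though the highest L-1236 value, 9.13, lay close to the lowest U-HO1 value, 9.22. The control difference was 1.11 (SE 0.32, 2.15-fold, adjusted p = 0.0219) on all arrays and 1.49 without the 2 arrays. The call was lost without L-1236 control replicate 1 or 3 or U-HO1 control replicate 1 or 3, while the difference ran from 0.84 to 1.49 as single arrays were left out. CDT1, its partner in loading, read 8.10, 8.48 and 8.03, and 8.05, 8.17 and 8.52 in L-1236. CDT1 in U-HO1 read 8.98, 8.93 and 9.03, and 8.96, 9.14 and 8.98, within 0.22 of each other and above all L-1236 arrays. Its control difference was 0.78 (SE 0.13, 1.71-fold, adjusted p = 0.000924). ORC1 and ORC6, subunits of the origin recognition complex, differed by 0.18 and 0.10, with 95% intervals from -0.27 to 0.64 and from -0.21 to 0.40.

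The 6 subunits of the MCM2 to MCM7 helicase did not differ alike between the lines. MCM4 read 8.33, 9.08 and 7.91, and 8.22, 8.36 and 8.97 in L-1236. MCM4 in U-HO1 read 10.19, 9.90 and 9.98, and 9.99, 10.02 and 9.91. The lines are separated by more than the whole range of values within U-HO1 but by less than the L-1236 range of 1.16. The control difference was 1.58 (SE 0.25, 3.0-fold, adjusted p = 0.000516). MCM6, a subunit of the same ring, ran the other way. It read 9.20, 9.51 and 9.10, and 9.02, 9.38 and 9.73 in L-1236, and 8.74, 8.71 and 8.84, and 8.78, 8.73 and 8.74 in U-HO1. All 6 U-HO1 arrays lay below all 6 L-1236 arrays. The control difference was -0.51 (SE 0.15, 1.42-fold lower, adjusted p = 0.0261), and the call was lost without L-1236 control replicate 2 or U-HO1 control replicate 1 or 2, with differences from -0.59 to -0.39 as single arrays were left out. Within an array, the log2 value of MCM4 minus that of MCM6 ran from -1.18 to -0.43 over the L-1236 arrays and from 1.14 to 1.45 over the U-HO1 arrays. The zero of that difference has no meaning, since the probe sets differ in brightness, but its shift between the lines does not depend on a constant added to an array's log values. That the lines do not overlap in it follows from the values of MCM4 and MCM6 given above and adds no further evidence. MCM5 was higher in U-HO1 by 0.71 (SE 0.15, adjusted p = 0.00438). MCM7 differed by 0.47 with adjusted p = 0.0743 on the control arrays and by 0.46 with adjusted p = 0.0108 over both labels. Without the 2 L-1236 arrays its control difference was 0.61 (adjusted p = 0.00560), and it was also called without L-1236 control replicate 2, knockdown replicate 1 or knockdown replicate 3 alone. MCM2 and MCM3 differed by 0.23 and 0.22, with intervals from -0.17 to 0.63 and from -0.13 to 0.57. Without the 2 arrays they differed by 0.37 (adjusted p = 0.0972) and 0.39 (adjusted p = 0.0166), so that MCM3 was then called.

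Among the 5 genes that switch the helicase on, 2 were higher (40%) and 0 lower, against 21.7% and 18.5% of probe sets above the median level. MCM10, which binds the helicase at firing, read 9.31, 9.83 and 9.84, and 9.21, 9.80 and 9.77 in L-1236. MCM10 in U-HO1 read 10.85, 10.69 and 11.36, and 10.79, 11.28 and 11.21. No array of one line reached the other, and the control difference was 1.31 (SE 0.22, 2.48-fold, adjusted p = 0.000779). MCM10 was also the single member whose highest L-1236 value fell on control replicate 3. GINS2 was higher by 0.54 (SE 0.17, adjusted p = 0.0317), with its highest L-1236 value of 10.87 above the lowest U-HO1 value of 10.84, and after quantile normalization its adjusted p was 0.0702. Its call was also lost without L-1236 control replicate 1 or 3 or U-HO1 control replicate 2 or 3, with differences from 0.46 to 0.63. Its partners GINS1 and GINS3 differed by 0.37 (95% interval from -0.10 to 0.84) and 0.11 (-0.32 to 0.54). GINS1 was called without L-1236 control replicate 2, at 0.63 with adjusted p = 0.0192, and without both high arrays, at 0.63 with adjusted p = 0.00695, and it ran from 0.18 to 0.63 as single arrays were left out. CDC45, the helicase cofactor, differed by -0.07 with an interval from -0.55 to 0.41.

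Among the 12 genes of strand synthesis 4 were higher (33.3%) and 0 lower on the control arrays. Of probe sets above the median level 21.7% were higher and 18.5% lower. RFC4, a subunit of the clamp loader, read 9.41, 9.98 and 9.40, and 9.51, 9.68 and 10.31 in L-1236. RFC4 in U-HO1 read 10.67, 10.56 and 10.61, and 10.51, 10.49 and 10.69. The U-HO1 arrays spanned 0.20 and all lay above L-1236, and the control difference was 1.02 (SE 0.19, 2.02-fold, adjusted p = 0.00191). The other loader subunits RFC1, RFC2, RFC3 and RFC5 differed by 0.38, -0.34, 0.15 and 0.07, and none was called on the full set of control arrays. Without the 2 L-1236 arrays RFC1 was called at 0.51 (adjusted p = 0.0128) and RFC3 at 0.42 (adjusted p = 0.0294), and RFC1 was also called without L-1236 control replicate 2 alone. RFC2 was called lower over both labels at -0.36 (adjusted p = 0.0145), and on the control arrays after quantile normalization, at -0.44 (adjusted p = 0.0210), or without L-1236 knockdown replicate 3, at -0.34 (adjusted p = 0.0467). POLE, the catalytic subunit of the leading-strand polymerase epsilon, read 8.62, 9.06 and 8.64, and 8.56, 8.61 and 8.96 in L-1236. POLE in U-HO1 read 9.57, 9.31 and 9.63, and 9.40, 9.61 and 9.51. Groups did not overlap, with a control difference of 0.73 (SE 0.14, 1.66-fold, adjusted p = 0.00208). POLE2, the second subunit of the same polymerase, read 7.18, 8.08 and 6.92, and 6.93, 7.35 and 8.06 in L-1236. POLE2 in U-HO1 read 8.48, 8.18 and 8.48, and 8.31, 8.34 and 8.45. The L-1236 arrays spread over 1.17 and those of U-HO1 over 0.30, and at their nearest arrays the lines read 8.08 and 8.18. Its control difference was 0.99 (SE 0.29, 1.98-fold, adjusted p = 0.0258) on all arrays and 1.33 without the 2 arrays. This call too was lost without L-1236 control replicate 1 or 3 or U-HO1 control replicate 1 or 3, with differences from 0.75 to 1.33.

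Of the primase pair, PRIM2, the large primase subunit, was higher by 0.71 (SE 0.19, adjusted p = 0.0135), a call lost without L-1236 control replicate 1 or 3 or U-HO1 control replicate 3, with differences from 0.57 to 0.94. PRIM1, the catalytic subunit, differed by -0.22 with an interval from -0.70 to 0.26, and by 0.05 without the 2 arrays. POLA2 of polymerase alpha differed by 0.24 (-0.14 to 0.62), POLD1 of the lagging-strand polymerase delta by -0.08 (-0.35 to 0.19) and the clamp PCNA by 0.35 (-0.15 to 0.85). Without the 2 L-1236 arrays, which were picked for high values of these genes, PCNA was called, at 0.59 with adjusted p = 0.00691. The flap nuclease FEN1 and the nick-sealing ligase LIG1, which finish lagging-strand fragments, differed by 0.15 (-0.11 to 0.41) and 0.09 (-0.19 to 0.36), and neither was called on all arrays or without the 2.

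Of the 4 genes of nucleotide supply, 3 were higher (75%) and 0 lower, against 21.7% and 18.5% of probe sets above the median level. TK1, the thymidine salvage kinase of S phase, read 8.15, 8.82 and 8.41, and 8.21, 8.37 and 8.86 in L-1236. TK1 in U-HO1 read 9.74, 9.67 and 9.94, and 9.75, 9.77 and 9.73. The gap between the highest L-1236 and the lowest U-HO1 array was wide beside the U-HO1 range of 0.27. Its control difference was 1.33 (SE 0.18, 2.51-fold, adjusted p = 0.000135), the smallest adjusted p among the 40 genes. TYMS, thymidylate synthase, read 9.90, 10.38 and 9.50, and 9.22, 9.86 and 10.54 in L-1236. TYMS in U-HO1 read 11.14, 10.88 and 11.16, and 10.97, 11.09 and 11.03. The L-1236 arrays covered 1.32 and remained below U-HO1 throughout, with a control difference of 1.13 (SE 0.28, 2.19-fold, adjusted p = 0.00943). RRM1, the large subunit of ribonucleotide reductase, read 8.95, 9.59 and 9.10, and 8.70, 9.29 and 9.79 in L-1236. RRM1 in U-HO1 read 10.10, 9.92 and 10.23, and 9.94, 10.18 and 10.17. Groups did not overlap, and the control difference was 0.87 (SE 0.23, 1.83-fold, adjusted p = 0.0144), lost as a call without L-1236 control replicate 1 or U-HO1 control replicate 3, with differences from 0.74 to 1.06. RRM2, the small subunit of the same enzyme, differed by 0.11 with an interval from -0.47 to 0.68.

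The 7 genes of G1 to S control gave 2 higher (28.6%) and 1 lower (14.3%). These shares lay near the 21.7% and 18.5% of probe sets above the median level. CCND2, cyclin D2, read 9.05, 9.98 and 9.80, and 9.12, 9.79 and 10.19 in L-1236. CCND2 in U-HO1 read 11.36, 10.96 and 11.37, and 11.14, 11.51 and 11.42. Here every U-HO1 array lay above every L-1236 array, the nearest at 10.96 and 10.19. The control difference of 1.62 (SE 0.27, 3.08-fold, adjusted p = 0.000774) was the largest of the 40. CCNE1, cyclin E1, read 9.03, 9.42 and 9.23, and 8.89, 9.49 and 9.58 in L-1236. CCNE1 in U-HO1 read 8.92, 8.11 and 8.50, and 8.24, 8.99 and 8.62. The arrays of the lines overlap, and the difference of -0.72 (SE 0.24, 1.64-fold lower, adjusted p = 0.0457) was no longer called without the 2 arrays, where it was -0.62 (adjusted p = 0.133), nor without any of 7 single arrays: L-1236 control replicates 1, 2 and 3 and knockdown replicate 2, and U-HO1 control replicates 2 and 3 and knockdown replicate 3. As single arrays were left out it ran from -0.92 to -0.52. Over both labels CCNE1 differed by -0.71 (adjusted p = 0.00537). CCNE2, cyclin E2, read 7.38, 8.16 and 7.39, and 7.18, 7.85 and 8.20 in L-1236. CCNE2 in U-HO1 read 8.14, 7.47 and 8.20, and 7.72, 8.34 and 7.93. Values of both lines intermix, and the difference of 0.29 had an interval from -0.34 to 0.93. E2F2 was higher by 0.42 (SE 0.13, adjusted p = 0.0292), a call lost without L-1236 control replicate 1 or 3 or U-HO1 control replicate 1 or 2, with differences from 0.31 to 0.51. The related E2F1 differed by -0.05 with an interval from -0.29 to 0.20. CDK2, the partner kinase of cyclin E, and CDC25A, the phosphatase that activates it, differed by 0.11 (-0.27 to 0.50) and -0.11 (-0.65 to 0.43), and CDK2 was at -0.023 after quantile normalization and at 0.33 (adjusted p = 0.0323, called) without the 2 arrays.

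**Figure D3:**
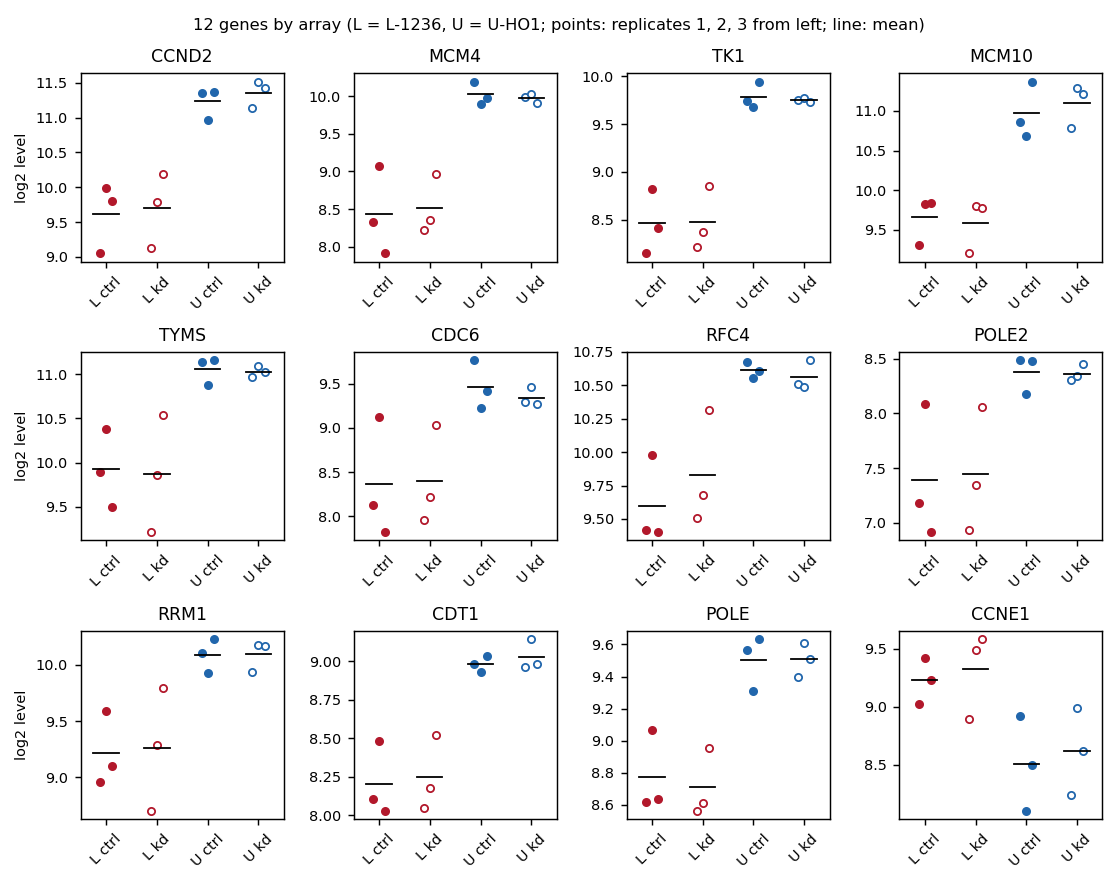
Log2 level on each array of the 12 called genes with the largest differences between the lines, with L-1236 in red, U-HO1 in blue, filled points labelled control, open points labelled knockdown and a line at each group mean of 3 arrays. In 11 panels all U-HO1 points lie above all L-1236 points, and for CCNE1 the U-HO1 points lie lower with some overlap.

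Over both labels, which uses the control arrays again, 16 genes were higher in U-HO1 and 3 lower. Of all probe sets 18.0% were higher and 17.1% lower, and of those above the median level 27.3% and 25.5%. MCM7 and RFC2 were the additions to the genes called on the control arrays. Without the 2 L-1236 arrays 26 genes were higher and 3 lower, and the shares of all probe sets were 17.7% and 15.9%. Counting arrays alone, 14 genes had all 6 U-HO1 arrays above all 6 L-1236 arrays, as 11.8% of all probe sets did, and 1 gene, MCM6, had all 6 below, as 11.5% did. Of probe sets above the median level 18.6% had all 6 above and 17.8% all 6 below.

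The spread between arrays of L-1236 was wide for these genes. The SD within labels had a median over the 40 genes of 0.33 in L-1236 and 0.14 in U-HO1, whereas over all probe sets it was 0.12 in both lines. The SD was larger in L-1236 for 37 genes (92.5%), against 49.7% of all probe sets and 54.4% of those above the median level. The exceptions were ORC6, FEN1 and CCNE1. The wider spread was not particular to the 40 genes: it held for 24 of 24 mitosis genes (median SD 0.41 in L-1236 and 0.15 in U-HO1) and for 57 of the 74 other replication and G1 to S genes described last (0.23 and 0.13). CDC6, POLE2 and CCNE2 had the largest SDs over the 4 groups, 0.47, 0.43 and 0.43, and their values on every array are given above. In U-HO1, MCM6 and E2F1 were the steadiest with SDs of 0.05, and CCNE1, CCNE2, CDC25A and MCM10 had the widest SDs, 0.39, 0.36, 0.32 and 0.31. The highest L-1236 value fell on knockdown replicate 3 for 26 genes, on control replicate 2 for 13 and on control replicate 3 for 1. The lowest fell on knockdown replicate 1 for 22, control replicate 3 for 10, control replicate 1 for 7 and knockdown replicate 2 for 1. Without the 2 high arrays, which were picked for their high values, the L-1236 SD shrinks by construction and rests on fewer arrays. The median SD in L-1236 was then 0.17, and the SD was larger in L-1236 for 21 genes. After quantile normalization the 2 arrays were the top pair for 35 genes, and after median centring for 37.

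**Figure D4:**
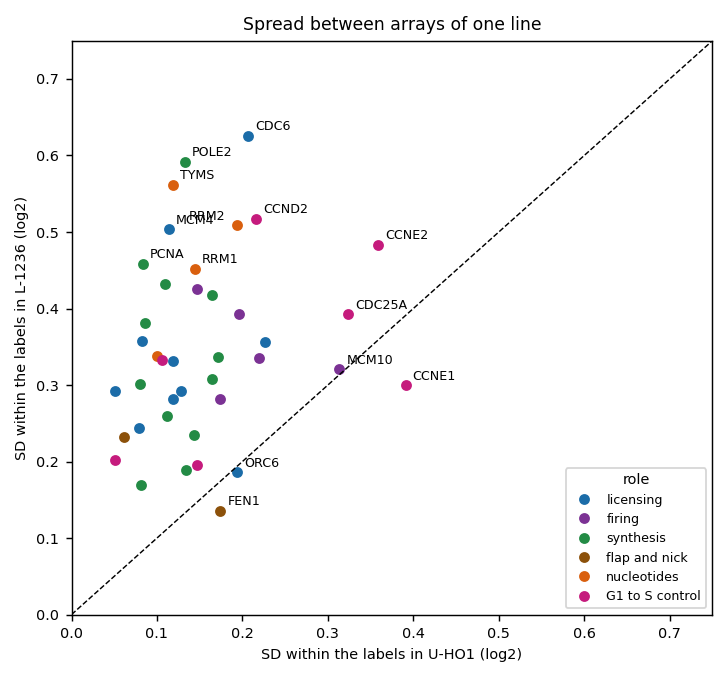
SD between arrays of one line within the labels, on the log2 scale, with U-HO1 on the x axis and L-1236 on the y axis, 1 point per gene, coloured by role, and the dashed line marking equal SDs. Of the 40 points 37 lie above the line, and CDC6 is the highest.

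Other lists moved with the 2 arrays. The mean of the 40 genes read 8.88, 9.38 and 8.84, and 8.75, 9.02 and 9.44 on the L-1236 arrays, and lay between 9.28 and 9.53 on the U-HO1 arrays. The mean of 24 mitosis genes, among them CCNB1, PLK1 and TOP2A, read 8.89, 9.67 and 9.13, and 9.19, 9.01 and 9.73 in L-1236, again highest on control replicate 2 and knockdown replicate 3, and 9.92 to 10.26 in U-HO1. On the control arrays 16 of the 24 mitosis genes (66.7%) were higher in U-HO1 and 0 lower, against 13.3% and 12.5% of all probe sets. The mean of 28 interferon-response genes, among them IFIT1 and MX1, read 7.98, 7.79 and 9.87, and 9.09, 9.71 and 8.46 in L-1236 and 8.17 to 8.44 in U-HO1. It was high on control replicate 3 and knockdown replicates 1 and 2, lowest on control replicate 2 and between these on knockdown replicate 3. It was also low on control replicate 1, where the replication genes were low too. The part of these lists, and of GATA3, in the spread of the replication genes was not tested.

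**Figure D5:**
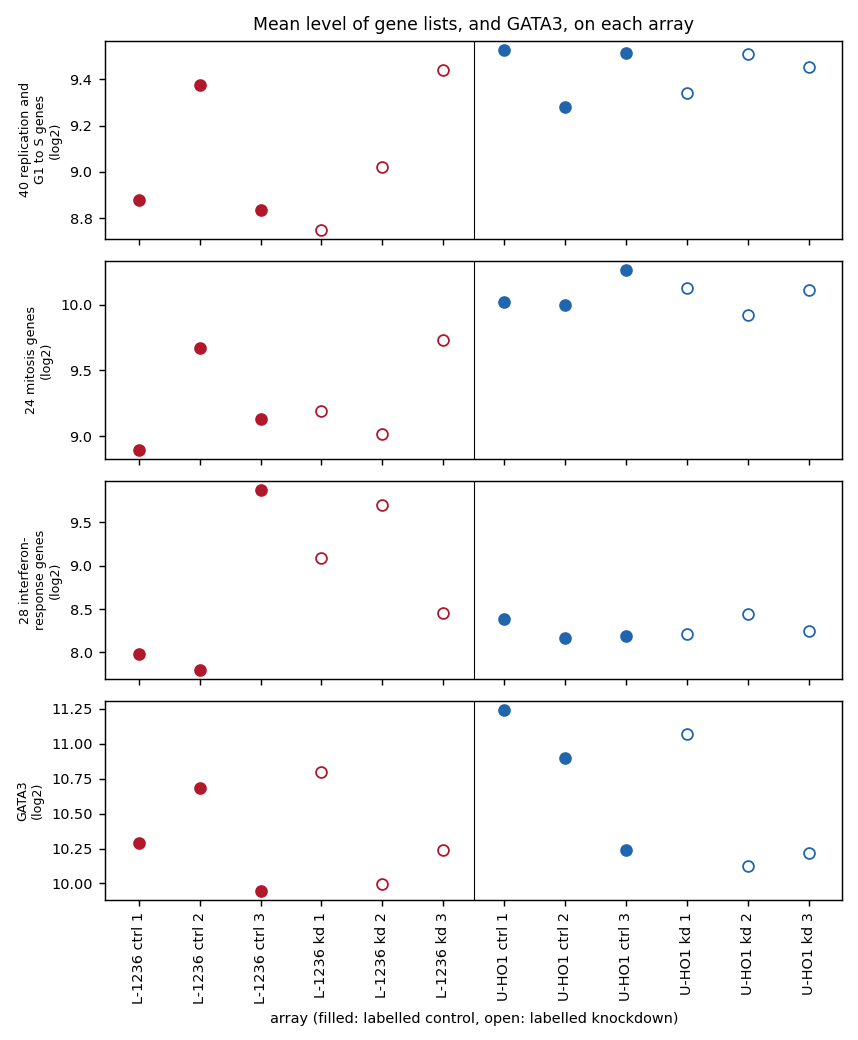
Mean log2 level of the 40 replication and G1 to S genes, of 24 mitosis genes and of 28 interferon-response genes, and the level of GATA3, on each of the 12 arrays. The replication and mitosis means are highest in L-1236 on control replicate 2 and knockdown replicate 3, while GATA3 is highest there on knockdown replicate 1.

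In the comparisons the submitters made, arrays labelled knockdown against arrays labelled control, no gene of the 40 passed. By the submitters' criteria, which combine a 25% false discovery rate with a 1.5-fold change, limma called 0 of the 40 genes and 0% of all probe sets in L-1236, and 0 of the 40 and 0% in U-HO1. At an unadjusted p under 0.05 the members gave 0 of 40 in either line. Of all 32321 probe sets 1542 passed in L-1236 and 339 in U-HO1. Beside such small shares, 0 of 40 does not set the members apart. RFC4, RFC1 and CDK2 had the smallest p in L-1236, with differences of 0.23 (95% interval from -0.19 to 0.66), 0.16 (-0.18 to 0.51) and 0.18 (-0.21 to 0.56), all at adjusted p = 0.925. Without the 2 high arrays 0 of the 40 genes were called in L-1236 as well, with RFC4 at 0.18, RFC1 at 0.14 and CDK2 at 0.24. RFC5, E2F2 and MCM10 had the smallest p in U-HO1, with -0.11 (-0.33 to 0.12), -0.12 (-0.40 to 0.16) and 0.13 (-0.35 to 0.60), all at adjusted p = 1.00. Over the 40 genes these differences ran from -0.11 to 0.23 in L-1236 and from -0.13 to 0.13 in U-HO1. Since GATA3 overlapped between the labels in both lines, these differences compare labels. Whether GATA3 itself was lowered cannot be told, as the 95% interval of its difference reached -0.64 in L-1236 and -1.003 in U-HO1. The difference between the effects in the lines was called by limma for 0 of the 40 genes and 0% of all probe sets. At an unadjusted p under 0.05 it gave 0 of 40 members and 795 of 32321 probe sets, again a small share.

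Beyond the 40 genes, 74 others of replication and G1 to S control were measured. On the control arrays 32 of them (43.2%) were higher in U-HO1 and 5 (6.76%) lower, with a median difference of 0.32. Of all probe sets 13.3% were higher and 12.5% lower, and of those above the median level 21.7% and 18.5%. Without the 2 L-1236 arrays 40 of the 74 genes were higher and 3 lower, where 13.3% and 11.7% of all probe sets were. Licensing and firing held most of the higher genes, 7 of 8 and 10 of 13, against 5 of 18 in synthesis, 3 of 5 in nucleotide supply and 7 of 30 in G1 to S control. The shares in synthesis and in G1 to S control lay near that of probe sets above the median level. Synthesis also held 1 lower gene and G1 to S control 4. E2F7, a repressor among the E2F factors, had the widest difference at 2.15 (SE 0.19, 4.45-fold, adjusted p = 4.79e-06). DSCC1 of an alternative clamp loader was higher by 1.36, the origin recognition subunit ORC3 by 1.33, cyclin A2 (CCNA2) by 1.26 and the helicase MCM8 by 1.10. CDKN1A (p21), the inhibitor of cyclin-dependent kinases, was lower in U-HO1, with a difference of -1.11 (SE 0.08, 2.16-fold, adjusted p = 5.42e-07). It read 8.99, 9.08 and 8.95, and 8.95, 8.99 and 8.95 in L-1236, and 7.95, 7.82 and 7.92, and 7.67, 7.91 and 7.76 in U-HO1. Unlike the replication genes, CDKN1A did not stand out on the 2 high L-1236 arrays, and its SD within labels there was 0.05.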

How the data were processed

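RNA of 12 samples was measured on one-colour Affymetrix whole-transcript arrays, 3 arrays in each of 4 groups given by the labels. The authors deposited normalized values that run from 3.86 to 13.99 and were read as log2, and R 2.8.1 is named per the submitters' processing notes. How background was corrected, how arrays were normalized and which genome build was used is not given in the sources used here. The number of arrays limits the precision. Probe sets were named through the platform annotation, only where it gives 1 symbol (19158 of 32321). All probe sets entered 1 linear model with 4 group means fitted by lmFit and eBayes of limma 3.58.1 (R 4.3.3), which leaves 8 residual degrees of freedom, and no probe set was dropped for low signal. The Benjamini-Hochberg adjustment ran over the whole table, and "called" means an adjusted p under 0.05 unless the submitters' criteria are named. Values on all arrays are given for the called genes with the 12 largest differences and those with the 3 largest SDs, and in each line the 3 smallest knockdown p are named. Of the other pathway genes the 6 largest called differences are named. The genes and lists were chosen with earlier results of these data known. Alternatives were a replicate block, quantile normalization, median centring, a filter on dim probe sets, 1 probe set per gene or their mean, only the arrays compared, another variance prior, array weights (statmod 1.5.0), a test against a fold of 1.2 and leaving out each array. Promoter windows came from a RefSeq table, and only bases before the start were searched.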

Additional observations from a re-analysis of the deposited data

How the results depend on the processing

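On the control arrays the count of 17 called genes lay between 10 and 19 when single arrays were left out (higher 9 to 18, lower 0 to 3), and the both-label count between 19 and 23. A test against a fold of 1.2 left 8 genes (CDT1, MCM4, MCM10, POLE, RFC4, TK1, TYMS and CCND2), with 8 higher and 0 lower. Over both labels that test left 1 lower gene. The share of all probe sets was not counted under that test, with single arrays left out, with array weights or with the replicate block. These counts therefore describe the members alone. The 2 lower calls became 1 with array weights, 0 with median centring and 1 without the 2 high L-1236 arrays. Without those 2 arrays the both-label count was 29, with 26 higher. The lower calls among the 74 other genes numbered 8 after quantile normalization, 3 after centring and 3 without the 2 arrays, and 2 to 6 without single arrays. The cause of these changes was not tested.

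Over all probe sets, deviations of same-numbered arrays from their group means correlated at 0.17, -0.40 and -0.22 in L-1236. In U-HO1 they correlated at -0.17, 0.06 and 0.32. Pairs with different numbers ran from -0.34 to 0.54 in L-1236 and from -0.38 to 0.38 in U-HO1. The highest, 0.54, was L-1236 control replicate 2 with knockdown replicate 3. With 3 arrays per group these values cannot decide whether replicate numbers pair the samples. With the replicate block 16 genes were called, 15 higher and 1 lower.

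Differences that changed sign all belonged to uncalled comparisons. Without the 2 arrays CDC45 was at 0.16, PRIM1 at 0.045, CDC25A at 0.14 and E2F1 at 0.038. CDK2 was at -0.023 after quantile normalization, and with array weights CDC25A was at 0.039 and E2F1 at 0.0039. Without single arrays ORC6 ran from -0.020 to 0.20, CDC45 from -0.26 to 0.16, GINS3 from -0.0081 to 0.27, PRIM1 from -0.37 to 0.045, RFC3 from -0.00011 to 0.42, LIG1 from -0.0018 to 0.16, RRM2 from -0.0997 to 0.36, CDK2 from -0.023 to 0.33, CDC25A from -0.29 to 0.14 and E2F1 from -0.16 to 0.038. For labelled knockdown against control, RFC4 in L-1236 ran from -0.0087 to 0.42 and MCM10 in U-HO1 from -0.015 to 0.32. The knockdown counts were 0 under every alternative run.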
